A study of Mus musculus with 6 samples.

Results

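Levels of 35 type I interferon-stimulated genes were followed in sorted mouse bone marrow progenitors. The 35 were taken from a written list of gene symbols, each matched exactly to a row of the deposited table, and all 35 were found among its 38926 symbols. The table gave FPKM, reads per kilobase of gene scaled for sequencing depth, in 6 RNA-seq libraries. Of these, 3 were labelled Drd2/Drd3 double knockout (KO-1, KO-2 and KO-3) and 3 wild type (WT-1, WT-2 and WT-3). Drd2 and Drd3 encode D2-like dopamine receptors. Both groups were untreated C57BL/6 mice of 8 to 12 weeks. From the marrow of femur and tibia, LSK cells were sorted, a gate (lineage-negative, Sca1-positive, cKit-positive) that holds stem cells and multipotent progenitors. How the alleles were made, the sex of the animals and whether replicates came from separate or pooled animals are not given in the sources used here, so the p-values reflect only how far these 6 libraries spread, which may be technical.

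Type I interferons (the alpha and beta interferons) bind the receptor pair Ifnar1 and Ifnar2, which activates the kinases Jak1 and Tyk2. Stat2 and Irf9 then act in the complex ISGF3, which binds interferon-stimulated response elements in promoters and switches on the interferon-stimulated genes. Their products sense viral nucleic acids, degrade or sequester viral RNA, attach the ubiquitin-like protein Isg15 to other proteins and damp the signal. In bone marrow, type I interferon is known to bring resting stem cells into cycle for a time, and stem cells are known to express part of this programme without infection.

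A core of the interferon-stimulated response element was searched in the members' promoters, and only part of the members held it. The windows shown are from 5 members that did, whose levels are given further on. The core searched was GAAA, then 2 bases of any kind, then GAAA, on both strands (TTTC, 2 bases, TTTC on the other), and matches may overlap. It was looked for in RefSeq promoters of build GRCm38.p6, each 250 bases before to 50 after a gene's start. The stretches are chr4:156200860-156200911 (minus strand) for Isg15, chr19:34640770-34640828 (plus) for Ifit1, chr19:34583358-34583431 (plus) for Ifit3, chr5:120907526-120907560 (minus) for Oas1a and chr12:26456548-26456587 (minus) for Rsad2. They are written 5′ to 3′ on the strand of the gene, with the matches in capitals.
Isg15: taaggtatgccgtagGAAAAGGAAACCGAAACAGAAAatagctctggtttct
Ifit1: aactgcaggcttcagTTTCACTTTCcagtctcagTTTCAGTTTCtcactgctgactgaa
Ifit3: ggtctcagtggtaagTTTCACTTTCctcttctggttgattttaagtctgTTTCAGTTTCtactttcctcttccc
Oas1a: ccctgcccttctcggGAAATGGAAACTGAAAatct
Rsad2: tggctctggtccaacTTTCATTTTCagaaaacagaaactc
The run of capitals in Isg15 holds overlapping matches, while Ifit1 and Ifit3 each hold a pair of separate ones. Of the 25 members with a promoter in the table, 13 (52%) held the core in any of their promoters. Counted in the same way, 1079 of all 27025 gene symbols with a promoter did (3.99%). The other 10 members had no entry. Isg20 and Ifi44, to which the results below return, had an entry without a match in this window.

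Reads worked back out of the FPKM summed to 7142924, 6813657 and 5243137 for KO-1, KO-2 and KO-3, against 5902862 to 6201097 for the WT libraries. These sums are lower bounds on depth. For 8740 genes only the smallest whole numbers were recovered, and for 831 genes none. A single read on 2000 bases of transcript gave 0.0693 to 0.0921 FPKM. Drd2 was listed at 0 in all 6 libraries and gave no check of the labels. Drd3 had 1.62, 3.08 and 3.04 FPKM in KO-1, KO-2 and KO-3 as labelled, against 0 in each library labelled WT. That is the reverse of a loss of Drd3 transcript in KO. Since how the alleles were made is not given, it does not settle whether the labels are right. All directions given here are therefore between libraries labelled KO and libraries labelled WT. The KO libraries were not alike. Xist, the RNA that coats a silenced X, was at 1.96, 0 and 2.01 FPKM in KO-1, KO-2 and KO-3, against 0 in all 3 WT libraries. Y-linked Ddx3y was at 0, 15.1 and 0 FPKM in KO-1, KO-2 and KO-3, against 12.5 to 13.9 FPKM in WT. Igkc, the constant region of the immunoglobulin kappa chain, was at 3182, 4.93 and 1173 FPKM in KO-1, KO-2 and KO-3, against 1.98 to 2.48 FPKM in WT. Over tested genes, any pair of KO libraries correlated at 0.963 to 0.970 (Pearson's r), any WT pair at 0.983 to 0.985. The gate markers Kit (82.6, 90.0 and 129 FPKM in KO, against 105 to 150 FPKM in WT) and Ly6a, which encodes Sca1 (161, 123 and 114 FPKM in KO, against 110 to 129 FPKM in WT), were present in every library. Of the other listed markers of LSK cells, Cd34 (mean 410 FPKM in KO, 675 FPKM in WT) lay below WT in every KO library. So did Flt3 (34.9 and 82.7 FPKM). Slamf1 (9.91 and 1.73 FPKM) and Gata2 (127 and 90.2 FPKM) lay above WT in every KO library. For Cd48 and Meis1 the groups overlapped. The part of these differences in the results was not tested.

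With all 6 libraries, 1 member, Isg20, rose in the libraries labelled KO and none fell. The KO libraries were instead split among themselves. In KO-1 and KO-3 most members lay above WT, and in KO-2 most lay below it. The test was limma on log2(FPKM + 1), in the 11371 genes that averaged 1 FPKM or more over the 6 libraries. Benjamini-Hochberg adjustment ran over all of them, and a gene was called where the adjusted p was below 0.05. All fold changes are KO minus WT on this scale, which understates those of low genes. The filter kept 33 of the 35 members, with means of 1.07 to 151 FPKM, and left out the antiviral GTPases Mx1 and Mx2. The 1 call in 33 stands beside 5.48% of all tested genes called higher (623), and the 0 lower calls beside 5.43% (617). At an unadjusted p under 0.05, 4 members were higher and 1 was lower, where 13.4% and 14.1% of all tested genes were. Voom on the recovered reads likewise called 1 member higher and 0 lower. Over the 33, the fold changes had a log2 median of 0.14 (21 positive, 12 negative), against -0.002 over all tested genes. In bulk samples, fewer expressing cells and less RNA per cell cannot be told apart.

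The split shows library by library. The median member deviated from its WT mean by 0.36, -0.36 and 0.32 on the log2 scale in KO-1, KO-2 and KO-3, against 0.05, 0.004 and -0.12 in WT-1, WT-2 and WT-3. Summed over the 35 members, the level was 871, 583 and 731 FPKM in KO-1, KO-2 and KO-3, against 653, 639 and 617 FPKM in the WT libraries, so KO-2 was the lowest of the 6 and the other KO libraries the highest. KO-2 was the lowest KO library for 29 of the 33 tested members, as it was for 30.7% of all tested genes. KO-1 lay above the highest WT library for 22 members (35.4% of all tested genes), KO-3 for 22 (33.7%), and KO-2 below the lowest WT library for 21 (35.8%). KO-1 and KO-3 were both above the highest WT library for 17 members, which 20.7% of all tested genes were. For 9 of those 17, KO-2 was also below the lowest WT library, which held for 1.51% of all tested genes. The SD on the log2 scale was larger among KO than among WT libraries for 28 members (66.1% of all tested genes), with medians of 0.43 and 0.18 over members, beside 0.20 and 0.14 over all tested genes. These counts describe 3 libraries, and no test between single libraries was made.

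**Figure D1:**
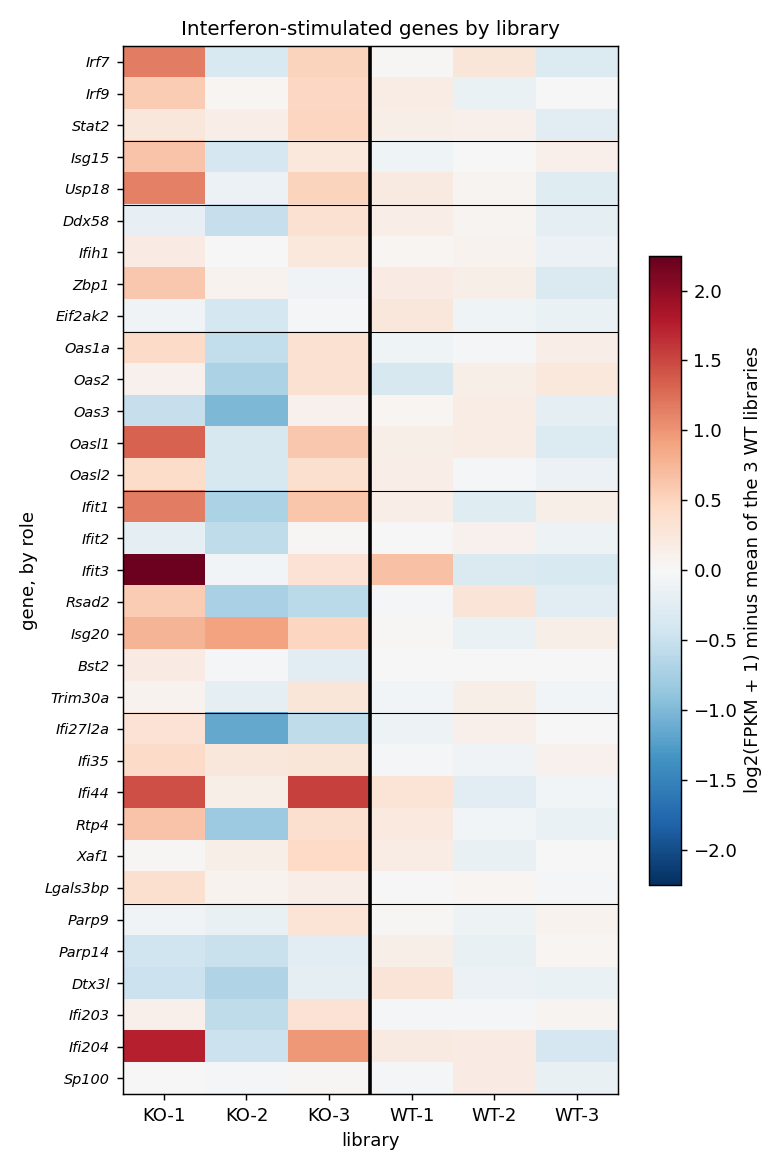
Deviation of each of the 33 tested interferon-stimulated genes (rows, grouped by role between thin lines) from its mean in the 3 WT libraries, on the log2(FPKM + 1) scale, in each library (columns, KO left of the thick line). The KO-1 and KO-3 columns are mostly red and the KO-2 column mostly blue, with medians of 0.36, 0.32 and -0.36, while Isg20 is red in all 3 KO columns.

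Among the factors that carry the interferon signal, none of the 3 tested members passed the test, and all 3 lay above the WT range in KO-1 and KO-3. Irf7, the factor that amplifies interferon production (chromosome 7, 141262706 to 141266481, minus strand, GRCm38), was at 30.4, 10.2 and 19.0 FPKM in KO-1, KO-2 and KO-3, against 13.4, 16.2 and 10.4 FPKM in WT. KO-2 was just under the lowest WT library and the others above the highest, and the log2 fold change of 0.44 ± 0.32 (SE) did not pass (limma adjusted p = 0.413). Irf9, the DNA-binding subunit of ISGF3, was at 32.5, 22.2 and 30.1 FPKM in KO-1, KO-2 and KO-3, against 24.1, 19.3 and 21.2 FPKM in WT, with KO-2 inside the WT range. Stat2, its partner, was at 9.39, 8.65 and 11.1 FPKM in the KO libraries, against 8.49, 8.42 and 6.26 FPKM in WT. The ranges of Stat2 did not overlap, by a small margin, and the difference of 0.30 did not pass (limma adjusted p = 0.259).

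Of the members that act in Isg15 conjugation, 2 were tested and neither passed. Isg15, the ubiquitin-like modifier whose promoter is shown above, was at 50.2, 24.1 and 37.5 FPKM in KO-1, KO-2 and KO-3, against 29.7, 31.4 and 34.3 FPKM in WT. Usp18, the protease that removes Isg15 and also binds Ifnar2 to block its signal, was at 45.1, 18.2 and 28.7 FPKM in KO-1, KO-2 and KO-3, against 23.3, 21.1 and 16.5 FPKM in WT. For both genes KO-1 was the highest of the 6 libraries and KO-3 was also above WT, while KO-2 was below WT for Isg15 and inside its range for Usp18 (limma adjusted p = 0.671 for Isg15 and 0.274 for Usp18).

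The 2′-5′ oligoadenylate synthetase (OAS) family makes the second messenger that activates RNase L, although the Oasl members do not all make it. All 5 OAS members were below the lowest WT library in KO-2, and for 3 of them (Oas1a, Oasl1 and Oasl2) both other KO libraries were above the highest. Oasl1, which in mice restrains Irf7 translation, was at 19.8, 5.44 and 11.6 FPKM in KO-1, KO-2 and KO-3, against 8.05, 8.31 and 5.65 FPKM in WT. Oas2 was at 1.21, 0.260 and 1.61 FPKM in the KO libraries, against 0.612, 1.26 and 1.44 FPKM in WT. The level in KO-2 rests on 8 reads, and the highest KO level was 6.21 times the lowest. Oas1a was at 27.9, 13.7 and 26.1 FPKM in the KO libraries, against 18.9, 19.8 and 22.7 FPKM in WT. Here the groups overlapped only because KO-2 fell on the other side of WT from KO-1 and KO-3. Oas1a has a near copy, Oas1g, so the split of reads between them is uncertain. None of the 5 passed (limma adjusted p = 0.287 to 0.878).

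Of the 7 tested antiviral effectors, Isg20 rose and the others did not pass. Isg20, an interferon-induced exoribonuclease (chromosome 7, 78913424 to 78920396, plus strand), was at 30.4, 33.8 and 25.0 FPKM in KO-1, KO-2 and KO-3 as labelled, against 17.9, 15.7 and 19.3 FPKM in those labelled WT. Every KO library was above every WT library, and KO-2 was the highest of the 6, which held for no other tested member. The means were 29.7 ± 4.40 FPKM in KO and 17.6 ± 1.81 FPKM in WT (SD, n = 3 each). The log2 fold change was 0.72 ± 0.14 (SE), with a limma adjusted p of 0.0129. The call was lost without WT-2, with a log2 fold change of 0.64 and a limma adjusted p of 0.0678, in an adjusted p range of 0.00703 to 0.0678 over the 16 alternatives.

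The Ifit proteins bind viral RNA or translation factors, and Ifit1 and Ifit3 differed widely between KO libraries. Ifit1 (chromosome 19, 34640871 to 34650009, plus strand) was at 17.6, 4.14 and 11.9 FPKM in KO-1, KO-2 and KO-3, against 8.32, 5.97 and 8.20 FPKM in WT. KO-2 was the lowest of the 6 libraries and KO-1 the highest, and the log2 fold change was 0.35 ± 0.39 (SE, limma adjusted p = 0.608). Ifit3 was at 6.99, 0.663 and 1.16 FPKM in KO-1, KO-2 and KO-3, against 1.74, 0.391 and 0.367 FPKM in WT. Its excess was in KO-1 (88 reads), while KO-2 and KO-3 (8 and 11 reads) were inside the WT range of 4 to 19 reads. Ifit3 has a near-identical copy, so its reads are uncertain. Ifit2, whose highest KO library was 1.65 times its lowest, had a fold change of -0.25. Rsad2 (viperin), an enzyme that makes a chain-terminating nucleotide, was at 11.7, 4.15 and 4.60 FPKM in KO-1, KO-2 and KO-3, against 7.29, 9.42 and 6.21 FPKM in WT, so here KO-3 lay below WT together with KO-2. Bst2 (tetherin), which holds budding virus at the cell surface, and Trim30a, a ubiquitin ligase, varied by 1.34-fold and 1.43-fold between KO libraries.

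Mx1 and Mx2, left out by the filter, were near 0. Mx1 was at 0.380, 0 and 0.253 FPKM in KO-1, KO-2 and KO-3, against 0 in all WT libraries, and Mx2 at 0.401, 0.0599 and 0.152 FPKM in KO, against 0.398, 0.0706 and 0.331 FPKM in WT. KO-2 was the lowest KO library for both. At most 10 reads were recovered for either gene in any library, a lower bound.

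Of 4 members that sense RNA or DNA, none passed. Ddx58 (RIG-I), which detects viral RNA ends, was at 10.9, 8.35 and 15.9 FPKM in KO-1, KO-2 and KO-3, against 14.0, 13.0 and 10.5 FPKM in WT. Ifih1 (MDA5), the sensor of long double-stranded RNA, was among the steadiest members, at 4.45, 3.85 and 4.69 FPKM in KO, against 3.96, 4.07 and 3.41 FPKM in WT. Zbp1, a sensor of Z-form nucleic acids, and Eif2ak2 (PKR), the kinase that stops translation on double-stranded RNA, had log2 fold changes of 0.20 and -0.17.

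Among 6 other induced proteins, Ifi44 had the largest fold change of the 33 members, and it did not pass. Ifi44, an induced cytoplasmic protein (chromosome 3, 151730922 to 151749960, minus strand), was at 14.7, 5.30 and 15.8 FPKM in KO-1, KO-2 and KO-3, against 6.08, 3.85 and 4.50 FPKM in WT. KO-1 and KO-3 were far above WT and KO-2 inside its range, which gave a log2 fold change of 1.04 ± 0.34 (SE, limma adjusted p = 0.0828). Ifi35, which pairs with the regulator Nmi, was at 58.2, 51.4 and 52.0 FPKM in the KO libraries, against 42.2, 40.7 and 46.0 FPKM in WT. Lgals3bp, a secreted galectin-binding glycoprotein, was at 180, 147 and 156 FPKM in the KO libraries, against 140, 144 and 137 FPKM in WT. In both, every KO library was above every WT library without passing the test (0.32, limma adjusted p = 0.0731, and 0.19, adjusted p = 0.243). Rtp4, a chaperone of receptors, was at 45.6, 16.01 and 37.5 FPKM in KO-1, KO-2 and KO-3, against 33.8, 27.7 and 26.3 FPKM in WT. Ifi27l2a, a small membrane protein, was at 29.6, 10.0 and 15.5 FPKM in KO-1, KO-2 and KO-3, against 21.8, 25.4 and 23.5 FPKM in WT. For Ifi27l2a KO-3 sided with KO-2, below WT, and KO-1 was above it. Xaf1, which opposes an inhibitor of apoptosis, varied by 1.40-fold between KO libraries (0.20).

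The nuclear and ADP-ribosylation members held the only 2 whose KO libraries were all below WT. Parp14, an ADP-ribosyltransferase (chromosome 16, 35832874 to 35871544, minus strand), was at 0.953, 0.886 and 1.29 FPKM in the KO libraries, against 1.93, 1.37 and 1.77 FPKM in WT. Dtx3l, the ubiquitin ligase partner of Parp9 (chromosome 16, 35926511 to 35939151, minus strand), was at 6.61, 5.66 and 8.08 FPKM in the KO libraries, against 11.9, 8.64 and 8.56 FPKM in WT. Neither passed, with log2 fold changes of -0.40 (limma adjusted p = 0.256) and -0.46 (adjusted p = 0.129). Dtx3l and Parp9 overlap by 682 bases on opposite strands, and the kit keeps no strand, so reads of the shared stretch cannot be assigned. Counting all roles, 4 members had every KO library above every WT library, where 16.2% of all tested genes did, and 2 had every KO library below, where 16.6% did. In the other 27 the groups overlapped.

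Ifi204, a DNA-binding protein of the interferon-inducible p200 family, had the largest ratio between KO libraries among the 33 tested members. It was at 4.61, 0.193 and 2.29 FPKM in KO-1, KO-2 and KO-3, against 0.924, 0.909 and 0.284 FPKM in WT. These stand for at least 75, 3 and 28 reads in KO and 13, 12 and 4 in WT, and reads shared with other p200 genes are uncertain. The highest KO library was 23.9 times the lowest. A ratio of at least 3 between KO libraries was found in 5 of the 33 tested members (Ifit1, Ifit3, Oas2, Oasl1 and Ifi204) and in 5.31% of all tested genes. Sp100, a nuclear body protein, lay at the other end, with 1.04 times between its highest and lowest KO library.

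**Figure D2:**
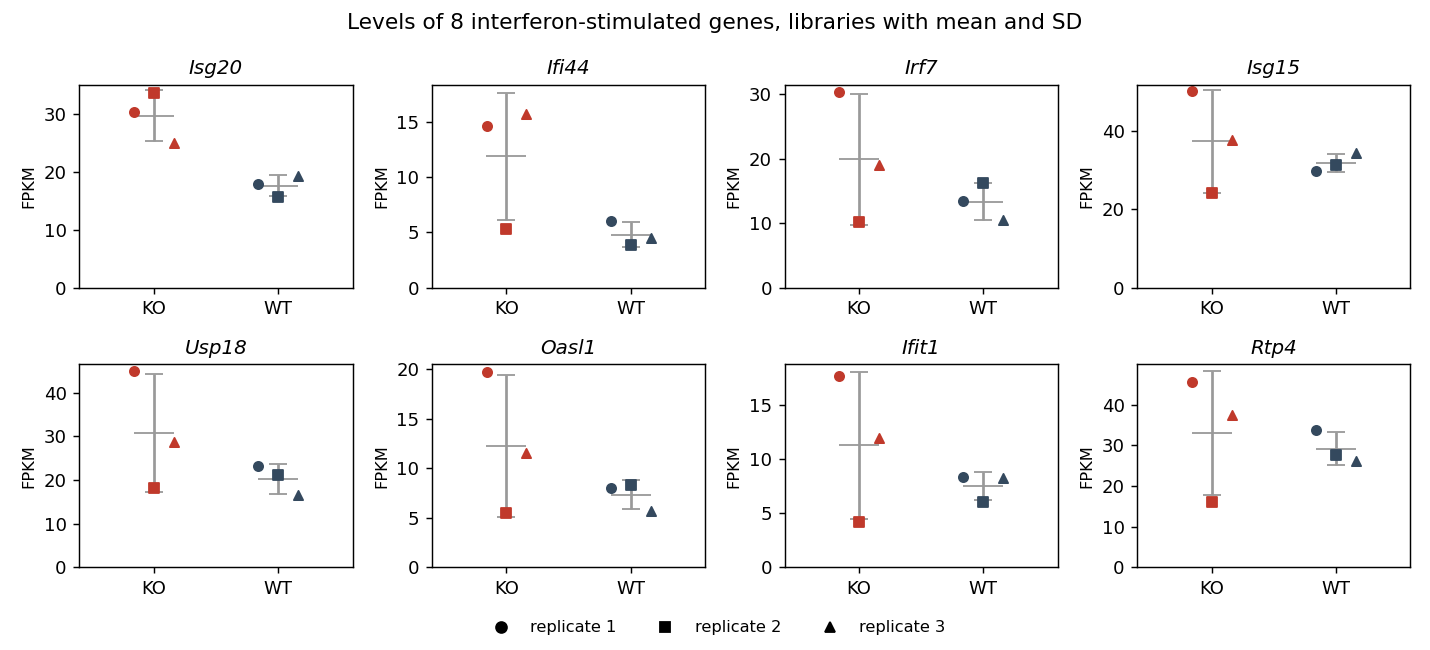
FPKM (vertical axes, from 0) of 8 interferon-stimulated genes in the KO (red, left) and WT (dark, right) libraries, with the mean and SD of each group in grey and a marker shape for each replicate. Replicate 2 of KO (square) is the lowest KO library in every panel but Isg20, where it is the highest at 33.8 FPKM.

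When KO-2 was left out, 5 members rose (15.2% of 33), where 3.96% of all tested genes were called higher, and none fell (3.81% of all). At an unadjusted p under 0.05, 15 members were then higher and 0 lower, where 12.3% and 12.4% of all tested genes were. Beside Isg20 (0.62, limma adjusted p = 0.0376), these were Ifi44 (1.50 ± 0.19 SE, adjusted p = 0.00583), Ifit1 (0.88 ± 0.21, adjusted p = 0.0434), Irf9 (0.52 ± 0.13, adjusted p = 0.0488) and Ifi204 (1.36 ± 0.31, adjusted p = 0.0398). With KO-2 in the fit, the other 4 did not pass. KO-1 and KO-3 both carried Xist and no Ddx3y, the reverse of every WT library. Without KO-2, the KO label therefore cannot be told apart from these sex-linked transcripts or from high Igkc. KO-2 is also the library in which these same members were low, so part of the rise without it follows from that choice. Without KO-1, 1 member was called higher and 1 lower (424 and 400 of all tested genes). Without KO-3 it was 1 and 0 (764 and 834). Set alone against WT, with its spread taken to be that of the WT libraries, KO-2 had Isg20 higher (0.90, limma adjusted p = 0.0421) and Ifi27l2a lower (-1.16 ± 0.14, adjusted p = 0.0202), where 2.33% and 2.19% of all tested genes were called. The median log2 fold change of the 33 members was 0.25 without KO-2 and -0.36 for KO-2 alone. Ifi27l2a also passed without KO-1 (-0.86, adjusted p = 0.0334). With a term for Y-linked transcripts, Isg20 alone was called higher (0.90, limma adjusted p = 0.0385) and 0 members lower, where 1.88% and 1.40% of all tested genes were. By construction, the fold changes with that term are those of KO-2 alone against WT, so the 2 fits differ only in the estimate of spread. The difference between KO-2 and the other KO libraries was not tested.

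**Figure D3:**
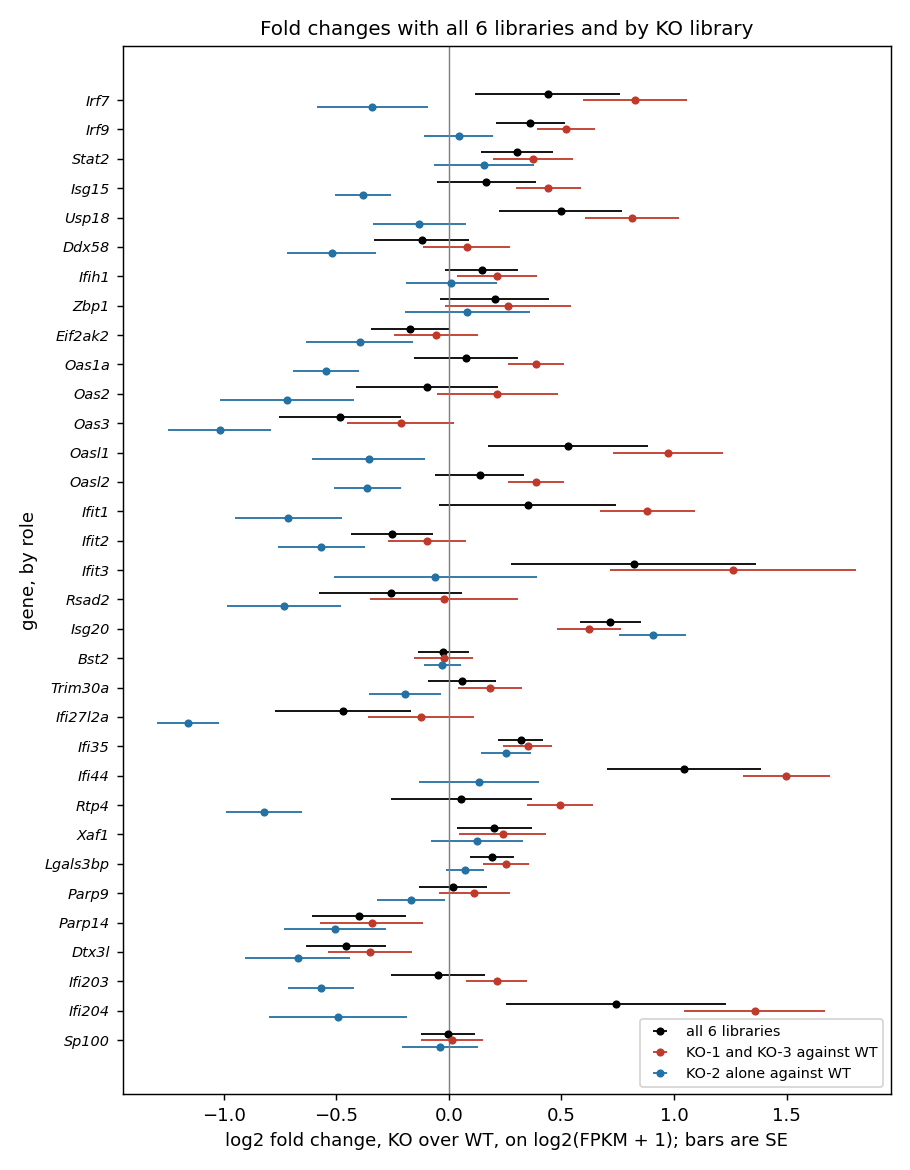
Log2 fold change of each tested interferon-stimulated gene, KO over WT on log2(FPKM + 1) with SE bars, with all 6 libraries (black), with KO-1 and KO-3 only (red) and with KO-2 alone (blue). Red points lie mostly right of 0 and blue points mostly left, with medians of 0.25 and -0.36, and Isg20 lies right of 0 in all 3 fits.

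Members were also read by whether their promoter held the core. In KO-1, KO-2 and KO-3 the median deviation from the WT mean was 0.19, -0.40 and 0.28 on the log2 scale for the 13 members with the core, and 0.42, 0.002 and 0.41 for the 12 without it. For the 8 tested members with no promoter entry it was 0.47, -0.50 and 0.32. KO-2 was thus the lowest KO library in each of the 3 sets, and no test was made.

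The split among KO libraries was set beside other values of the same libraries. KO-1 and KO-3, where most members lay above WT, were the 2 libraries with Xist and high Igkc, and KO-2 was the KO library with Ddx3y. Summed FPKM of 11 B and plasma cell markers was 3703, 227 and 1675 in KO-1, KO-2 and KO-3, against 428 to 449 in WT. Most of that gap is Igkc: without it the other 10 summed to 521, 222 and 502 FPKM in KO-1, KO-2 and KO-3, against 426 to 447 FPKM in WT. Not every marker followed it, since Mzb1, of antibody-secreting cells, was at 1.23, 3.04 and 7.53 FPKM in KO-1, KO-2 and KO-3. Igj, which joins immunoglobulin chains in plasma cells, was at 39.8, 0.24 and 33.8 FPKM in KO-1, KO-2 and KO-3. The 11 neutrophil markers summed to 167, 29.2 and 63.8 FPKM in KO-1, KO-2 and KO-3, against 120 to 245 FPKM in WT. The erythroid markers, 9 of 10 in the table, summed to 1111, 2098 and 951 FPKM in KO-1, KO-2 and KO-3, against 469 to 737 FPKM in WT. The 9 markers listed for plasmacytoid dendritic cells, a main source of type I interferon, summed to 38.0, 36.8 and 37.8 FPKM in KO, against 60.5 to 71.0 FPKM in WT. Without Cox6a2 the other 8 summed to 31.9 to 36.5 FPKM in KO and 42.3 to 48.7 FPKM in WT. Tcf4, Irf8 and Ly6d made up most of that. Of the 9, Klk1 was at 0 in every library and Siglech at most 0.22 FPKM. Pacsin1 and Spib were at most 0.397 and 0.342 FPKM, so the sum does not show that these cells were present. The sums for T and NK cells were 250 to 363 FPKM in KO and 406 to 473 FPKM in WT. That order rests on Nkg7, a cytotoxic granule protein: without it the other 10 summed to 63.0 to 72.2 FPKM in KO and 53.1 to 56.0 FPKM in WT. The sums for monocytes, macrophages and dendritic cells were 130 to 216 FPKM in KO and 154 to 171 FPKM in WT, and without Cd14, an endotoxin receptor, 64.7 to 107 FPKM in KO and 114 to 136 FPKM in WT. Those for endothelial and stromal cells were 20.9 to 24.4 FPKM in KO and 25.2 to 35.8 FPKM in WT. That gap rests on Cxcl12: without it the other 8 summed to 15.4 to 19.1 FPKM in KO and 18.8 to 22.3 FPKM in WT, which overlap. Sex-linked transcripts and the other values that set KO-2 apart cannot be told apart within the KO group, and the part of these values in the result was not tested.

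**Figure D4:**
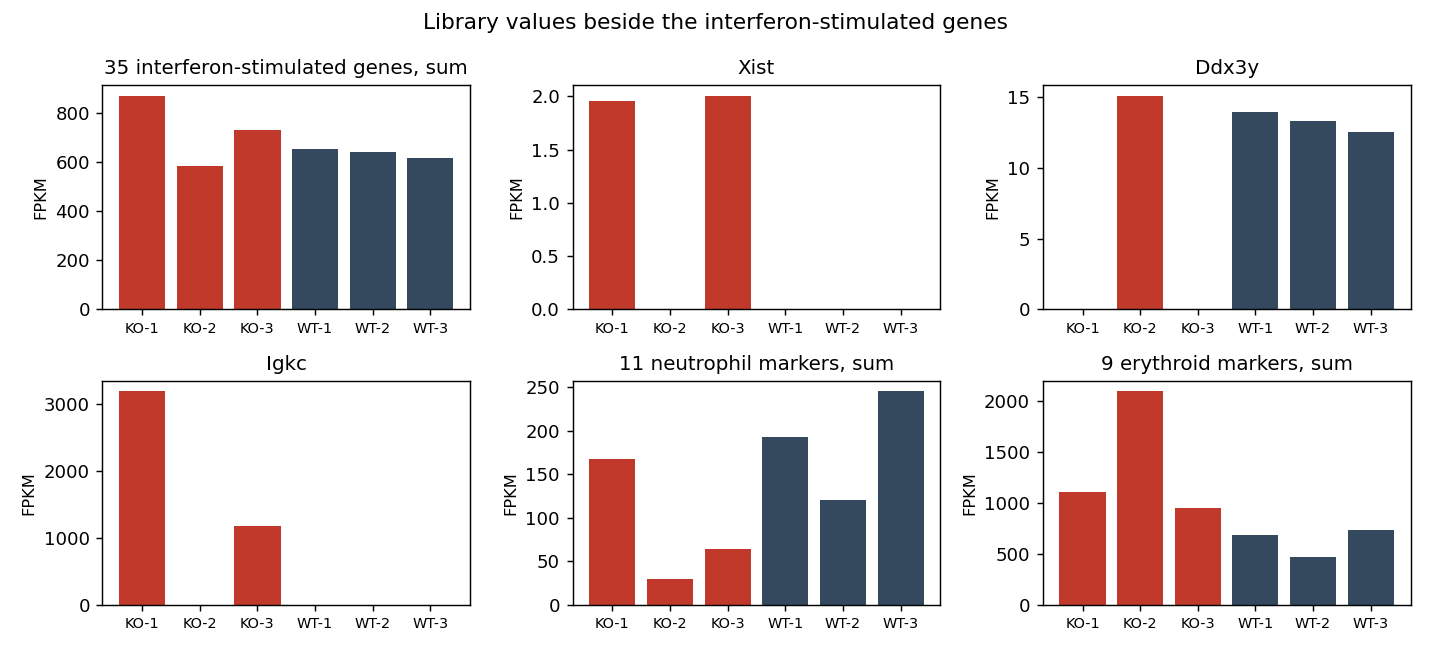
FPKM by library (KO red, left; WT dark, right) of the 35 interferon-stimulated genes summed, of Xist, Ddx3y and Igkc, and of the summed neutrophil and erythroid markers, each axis starting at 0. KO-2 has the lowest interferon-stimulated sum (583 FPKM), no Xist, the only Ddx3y among KO libraries (15.1 FPKM), the lowest neutrophil sum (29.2 FPKM) and the highest erythroid sum (2098 FPKM).

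The ligands, receptors, sensors and inhibitors of the pathway were read from lists of their own. Of 21 interferon genes listed, 19 were in the table. At this depth 18 of them were listed at 0 in every library, and Ifnz was at 0.219 FPKM in WT-3 alone. The shares of all tested genes called, 5.48% higher and 5.43% lower, are the background for the 4 lists that follow. Of 14 tested receptor and signalling genes, 1 rose and 0 fell. It was Ifngr1, the ligand-binding chain of the receptor for interferon gamma, a type II interferon (131 ± 5.78 FPKM in KO and 101 ± 8.07 FPKM in WT, SD, n = 3 each, limma adjusted p = 0.0365). The type I receptor chain Ifnar1 was at 15.1 ± 1.75 FPKM in KO and 15.6 ± 1.84 FPKM in WT. Ifnar2 was at 39.9 ± 3.12 FPKM in KO and 48.8 ± 2.41 FPKM in WT, with every KO library below every WT library (limma adjusted p = 0.0993). Tyk2 likewise had all KO libraries below WT, at 9.79 ± 1.44 FPKM in KO and 13.8 ± 0.599 FPKM in WT (adjusted p = 0.0603 in limma). Jak1 and Irf1 had log2 fold changes of 0.15 and -0.33 and did not pass. Without KO-3, both Ifnar2 (-0.35, limma adjusted p = 0.0441) and Tyk2 (-0.55, adjusted p = 0.0315) passed. Tyk2 also passed in voom on the recovered reads (adjusted p = 0.0366) and with the filter at 5 FPKM (limma adjusted p = 0.0482).

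Of 12 tested sensors and adaptors upstream of interferon, 3 fell and 0 rose. Trim25, the ubiquitin ligase that acts on RIG-I, was at 7.28 ± 1.05 FPKM in KO and 14.0 ± 1.42 FPKM in WT (SD, n = 3 each, limma adjusted p = 0.00785). Tmem173 (STING), the adaptor of cytosolic DNA sensing, was at 58.6 ± 3.88 FPKM in KO and 77.2 ± 1.66 FPKM in WT (limma adjusted p = 0.0267). Mb21d1 (cGAS), the DNA sensor before it, was at 3.00 ± 0.552 FPKM in KO and 5.56 ± 0.749 FPKM in WT (limma adjusted p = 0.0332). In these 3 genes all KO libraries, KO-2 included, were below WT. Of 13 tested inhibitors, 2 rose and 2 fell. Rnf125, a ubiquitin ligase acting on RIG-I, rose to 161 ± 11.5 FPKM in KO, against 86.8 ± 5.24 FPKM in WT (limma adjusted p = 0.00105). Tnfaip3 (A20), a brake on NF-kB, fell to 35.3 ± 5.80 FPKM in KO, against 68.6 ± 5.45 FPKM in WT (limma adjusted p = 0.00304). Cish, a cytokine-induced inhibitor of STAT signalling, was higher (0.85, limma adjusted p = 0.0419) and Nlrc3, a brake on STING, was lower (-0.83, limma adjusted p = 0.0430). Cish was at 14.2, 9.31 and 18.9 FPKM in KO-1, KO-2 and KO-3, against 6.28 to 8.29 FPKM in WT, so KO-2 was close to WT. The Cish call held in 5 of the 16 alternatives.

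A further list of 63 interferon-induced genes outside the 35 had 52 tested, of which 3 rose and 4 fell, with a median log2 fold change of -0.11. Ifi44l, the neighbour of Ifi44 on chromosome 3 with 8776 bases between them, was at 29.9, 17.3 and 31.1 FPKM in KO-1, KO-2 and KO-3 as labelled, against 0 in every library labelled WT (limma adjusted p = 1.82e-05). Unlike Ifi44, Ifi44l in KO-2 was far from every WT library. Uba7, which activates Isg15 for transfer, rose, in KO-2 as in the other KO libraries (31.4, 29.1 and 33.8 FPKM in KO, against 21.2 to 23.7 FPKM in WT, 0.46, limma adjusted p = 0.0265). Slfn2 was also called higher (1.24, limma adjusted p = 0.0365), but with KO-2 close to WT. It was at 11.7, 5.13 and 14.8 FPKM in KO-1, KO-2 and KO-3, against 2.98 to 4.41 FPKM in WT. The Slfn2 call held in 6 of the 16 alternatives. Cxcl10, an interferon-induced chemokine, fell to 13.0 ± 3.31 FPKM in KO, against 26.1 ± 5.60 FPKM in WT (SD, n = 3 each, limma adjusted p = 0.0183). Mlkl, the executioner of necroptosis, fell too (-0.54, limma adjusted p = 0.0264), as did Slfn9 (-1.08, adjusted p = 0.0364) and the cytidine deaminase Apobec3 (-0.44, adjusted p = 0.0447), the last named after its value was seen. Over these 4 lists 6 genes rose and 9 fell, and the count depended on single libraries: 2 rose without KO-1 and without each WT library, and 2 to 4 fell without KO-2 and without each WT library. Calls of Ifi44l, Rnf125 and Tnfaip3 held in all 16 alternatives, with adjusted p of at most 0.00261, 0.0149 and 0.0268 in limma. Without WT-2, and likewise without WT-3, the calls left were these 3 and Trim25. Ifngr1, Tmem173, Mb21d1, Cish, Nlrc3, Slfn2, Uba7, Cxcl10, Mlkl and Slfn9 then had limma adjusted p of 0.0734 to 0.158 without WT-2 and 0.0731 to 0.131 without WT-3.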

How the data were processed

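RNA from sorted LSK cells was sequenced in 6 libraries (SMART-Seq v4 and Nextera XT, per the labels' protocols, which does not mark strand). The authors deposited 1 table of FPKM values. The submitters' processing notes list build mm10 and, with no role or order, HTSeq 0.6.1, TopHat2 2.1.1, DESeq2 1.18.1 and bcl2fastq 2.19.1.403. No source used here gives the annotation. No table column was left unused (0 columns of other samples).

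Groups follow the labels. The 3 KO libraries were compared with the 3 WT libraries by limma 3.58.1 (R 4.3.3, eBayes with trend after lmFit, two-sided) on log2(FPKM + 1), a pseudocount of 1, where the mean reached 1 FPKM. Counts were recovered because values of a gene stood in whole-number ratios (each of the 17183 genes detected in at least 2 libraries, within a relative 1e-09). They were scaled to GENCODE M21 lengths for 20 members. In the other 15 they are the smallest whole numbers, hence lower bounds. Counting error alone is covered by reads. Voom (limma) ran on these reads with median-of-ratios library sizes. Other alternatives were pseudocounts of 0.1 and 0.5, no filter, a mean of 5 FPKM, equal totals, a replicate block, no trend, KO-2 alone, a term for Y-linked transcripts and leaving out each library. The fit was tested on simulated data. Values and plots were prepared with pandas 2.3.3, matplotlib 3.10.9 and numpy 2.4.6 in Python 3.11.15.

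The members, lists and tests were chosen with earlier results of these data known. Lists were matched by exact symbol. Values by library are given for members called, members whose groups did not overlap and members with a KO ratio of at least 3. Members outside this rule that show by library (Irf7, Irf9, Isg15, Usp18, Oas1a, Ifi44, Rsad2, Rtp4, Ifi27l2a, Ddx58 and Ifih1) were chosen after their values were seen, as were 8 genes plotted and the promoters shown. Of each other list, up to 6 called genes by smallest p were named, with Ifnar1, Ifnar2, Jak1, Tyk2 and Irf1. A gene that this rule also names is not reported here.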

Additional observations from a re-analysis of the deposited data

How the results depend on the processing

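Of the 33 tested members, 27 kept their side of the threshold in each of the 16 alternatives that tested them, and 15 kept their sign in each. The exceptions were Isg20, Ifi44, Ifit1, Irf9, Ifi204 and Ifi27l2a. No filter gave 588 called genes, with 3 higher and 3 lower in the 4 pathway lists. The lists gave 2 higher without the trend. Replicate numbers did not pair the libraries (Pearson's r of deviations -0.03, 0.05 and -0.12 for equal numbers). The replicate block gave 805 called genes, 2 members higher (Isg20, and Ifi44 with a limma adjusted p of 0.0422), and 2 higher and 4 lower in the lists. KO-2 alone gave 514 called genes, 1 member lower, a median of -0.36, and 2 higher and 5 lower in the lists. A term for Y-linked transcripts gave 373 called genes, a median of -0.36, and 2 higher and 2 lower in the lists. Leaving out 1 library at a time gave 370 (without WT-2) to 1598 (without KO-3) called genes, beside 1240 with all. Members higher ran between 0 (without WT-2) and 5 (without KO-2), members lower between 0 and 1 (without KO-1), and the median between -0.003 (without KO-1) and 0.25 (without KO-2). The lists then had 2 to 6 higher and 2 to 12 lower. The term for Y-linked transcripts holds KO-1 and KO-3 apart from KO-2 by construction, since only they lacked these transcripts. Its fold changes are therefore those of KO-2 alone against WT. For the other changes the cause was not tested. Trim25 missed the threshold only with that term (limma adjusted p = 0.0505). Depth limits the members of few reads (Ifit3, Oas2, Ifi204, Mx1 and Mx2), and a read on 2000 bases gave 0.0693 to 0.0921 FPKM.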
